A study of Arabidopsis thaliana with 17 samples.

Results

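The RALF genes of Arabidopsis thaliana encode rapid alkalinization factors, a family of small secreted signalling peptides. Members were all genes of the nuclear protein-coding annotation with a symbol or synonym made of RALF or RALFL and a number, which gave 34 of 27444 genes. H3K27me3, a histone mark of gene silencing, was mapped by CUT&RUN, in which an antibody directs a nuclease to cut out the chromatin it binds. Endosperm nuclei of 6N DNA content were sorted by DAPI from F1 seeds of Col mothers and Ler fathers, 4 days after pollination, either unfixed or after formaldehyde fixation. Each treatment had 2 H3K27me3 and 2 H3 libraries. Leaf nuclei of 2N, 4N and 8N content came from 3-week-old Col plants and gave 1 library per antibody. Endosperm therefore carried a maternal Col and a paternal Ler genome, whereas leaf carried Col alone and had no replicate. Nuclei were sorted by DNA content alone, without a marker of cell type.

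RALF peptides are rich in cysteines and bind receptor kinases of the FERONIA family together with small membrane-anchored co-receptors of the LORELEI family. They also bind leucine-rich repeat extensins, which are proteins of the cell wall. Several RALF peptides are known from pollination, where they hold the growing pollen tube wall intact or pass signals between pollen and stigma, and others act in root growth and immunity. H3K27me3 is set by Polycomb repressive complex 2, and plant genes that act in a narrow set of cell types often carry it elsewhere. The mark was read here as domains along the chromosome and as reads relative to H3. RNA was not measured. In bulk nuclei, a mark on fewer nuclei and less mark per nucleus cannot be told apart.

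The 5 domain lists held 5878 domains in leaf and 5940 to 8403 in the endosperm libraries. They covered 20.5 Mb in leaf, 19.8 and 20.1 Mb in fixed endosperm, and 21.3 and 12.7 Mb in unfixed endosperm, where replicate 2 had the lowest cover. The tissue labels could be read only through the mark. In leaf, 0 of 6 photosynthesis genes and all 4 embryo regulators examined were marked (19.7% of all genes). In all endosperm lists, 0 of the photosynthesis genes and 2 of the embryo regulators were marked (9.92% of all genes). In at least 1 endosperm list, 1 photosynthesis gene and 3 embryo regulators were marked (25.7% of all genes). Of 8 endosperm genes, 5 were marked in leaf and 1, PHE1, in all endosperm lists. Of 6 seed coat genes, 1 was marked in all endosperm lists and 2 in leaf. The read table held 12189039 H3K27me3 and 7638577 H3 reads assigned to a parent.

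Of the RALF genes, 16 were marked in leaf and 7 throughout endosperm, and each of these 7 was also marked in leaf. A gene was called marked when domains covered at least 50% of its window, the gene with 500 bp on each side. In leaf, 16 of 34 RALF genes were marked, where 19.7% of all genes were. In all 4 endosperm lists, 7 RALF genes were marked, where 9.92% of all genes were. These 7 were RALFL8, RALFL10, RALFL11, RALFL12, RALFL13, RALFL15 and RALFL19. All 7 were marked in leaf as well, where 7.95% of all genes were marked in all 5 lists. The reverse state, with all endosperm lists marked but leaf unmarked, held 0 RALF genes and 1.97% of all genes. By contrast, 6 were marked in leaf but in none of the endosperm lists, where 3.31% of all genes were: RALFL4, RALFL7, RALFL9, RALFL16, RALFL25 and RALFL30. RALFL17, RALFL20 and RALFL26 were marked in leaf and in 2 or 3 endosperm lists. Leaf has 1 library, so the tissue difference has no test.

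In at least 1 endosperm list, 14 RALF genes were marked, where 25.7% of all genes were. Counted in this way, leaf and endosperm differed by few genes, with 16 and 14. They tied when 80% cover (11 each) or any overlap (19 each) was asked for, settings without computed shares of all genes. Such counts set any of 4 endosperm lists against 1 leaf list. Single lists marked 12 and 10 RALF genes in fixed replicates 1 and 2 and 12 and 8 in unfixed replicates 1 and 2. Of the 14 RALF genes marked in at least 1 endosperm list, 4 were not marked in leaf, where 9.32% of all genes were in that state: RALFL2, RALFL3, RALFL28 and RALFL29. Another 14 RALF genes were marked in no list, where 71% of all genes were. They were RALF1, RALFL5, RALFL6, RALFL14, RALFL18, RALFL21, RALFL22, RALF23, RALFL24, RALFL27, RALFL31, RALFL32, RALFL33 and RALFL34. Of them, 11 met no domain in any list, where 52% of all genes met none; the other 3 were RALF23, RALFL31 and RALFL34. RALF genes are short, with a median length of 575 bp against 2078 bp for all genes. Among the 12373 genes within the RALF length range of 246 to 1965 bp, 28.1% were marked in leaf, 13% in all endosperm lists, 33.7% in at least 1 endosperm list, 4.76% in leaf alone and 1.95% in all endosperm lists but not leaf.

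**Figure D1:**
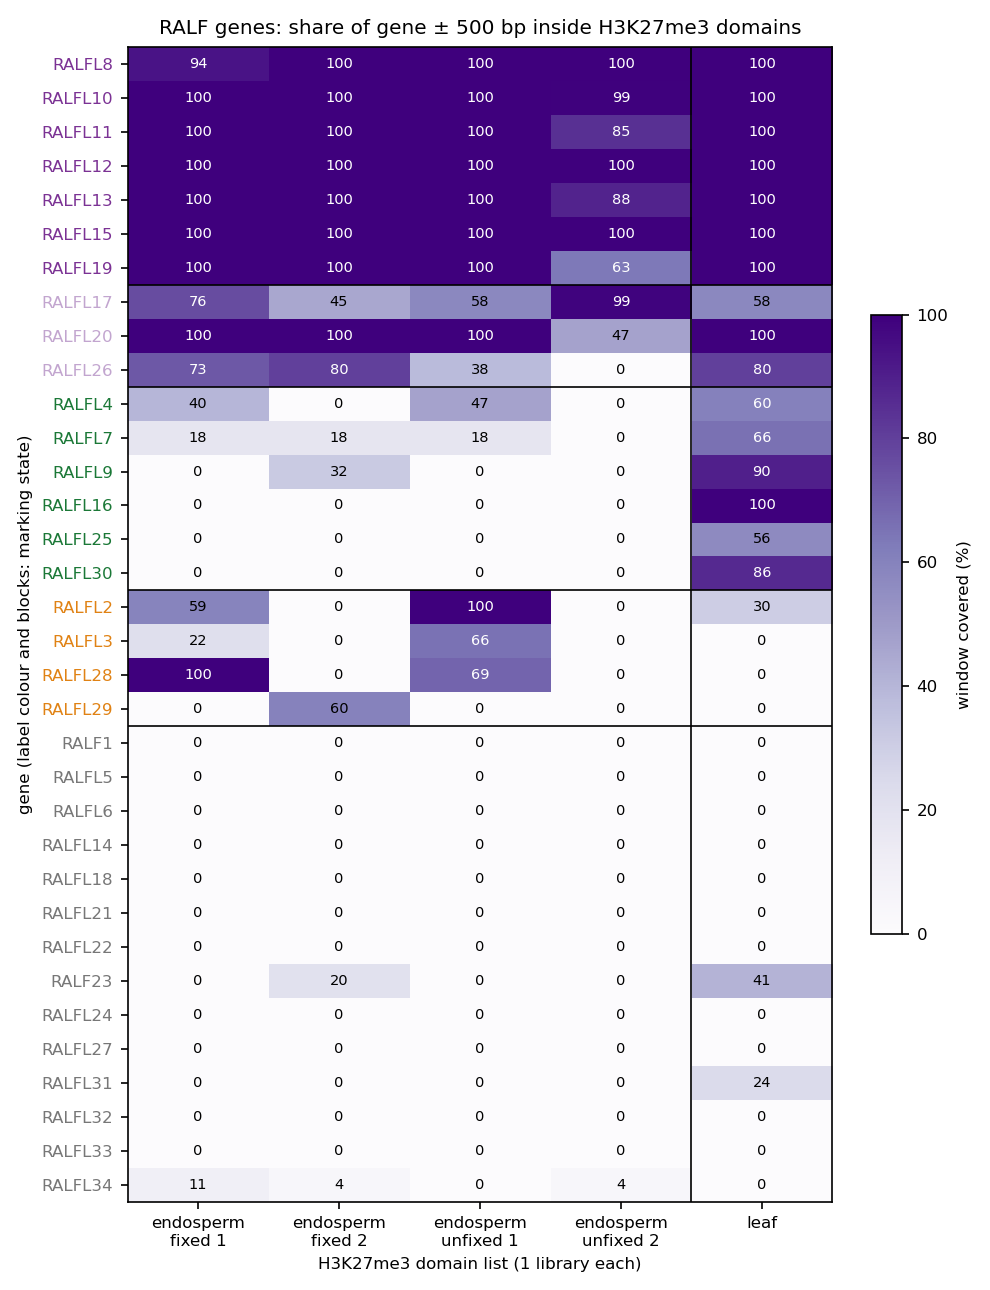
Percent of each RALF window (gene with 500 bp on each side) inside H3K27me3 domains, with 1 row per gene and 1 column per library, grouped by marking state. The top 7 rows are covered over at least 50% in all 5 lists, and the bottom 14 rows stay under 50% in every list.

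RALFL10, RALFL11, RALFL12, RALFL13, RALFL25, RALFL26 and RALFL30 are pollen peptides through which a stigma admits compatible pollen. Leaf domains marked 7 of these 7 genes (19.7% of all genes), and 4 were also marked in all endosperm lists (9.92% of all genes); these 4 lie in 1 leaf domain. RALFL12 was covered over 100% in each of the 5 lists. RALFL10 was covered over 100% in fixed replicates 1 and 2, unfixed replicate 1 and leaf, and over 99.3% in unfixed replicate 2. RALFL11 and RALFL13 were likewise at 100% in those 4 lists, and at 84.5% and 88.3% in unfixed replicate 2. The 4 genes stand in a tandem row, and each was high in both tissues. RALFL26 was covered over 72.9% and 79.9% in fixed replicates 1 and 2, over 38.1% and 0% in unfixed replicates 1 and 2, and over 79.9% in leaf. RALFL25 was at 0% in all 4 endosperm lists and 56.3% in leaf, and RALFL30 at 0% in all 4 and 86.4% in leaf. For RALFL25 and RALFL30 the leaf value thus lay above all 4 endosperm values. The 50% line requires this of every gene marked in leaf alone, so it also held for RALFL4, RALFL7, RALFL9 and RALFL16. With 1 leaf library it has no test.

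The stigma peptides that act opposite them, RALF1, RALFL22, RALF23 and RALFL33, were marked in none of the lists, where 71% of all genes were. Pollen and stigma groups were formed after the values were seen, so the contrast between them is not a test. RALF1, which also slows root elongation through FERONIA, RALFL22 and RALFL33 were at 0% in each of the 5 lists. RALF23, which dampens immune signalling through FERONIA, was covered over 0% and 20.5% in fixed replicates 1 and 2, 0.24% and 0% in unfixed replicates 1 and 2, and 40.7% in leaf. Its cover came from the edge of a domain over its neighbour AT3G16580.

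RALFL4 and RALFL19, pollen peptides that keep the tube wall intact, were both marked in leaf and differed in endosperm. RALFL19 was covered over 100% in fixed replicates 1 and 2, unfixed replicate 1 and leaf, and over 63.4% in unfixed replicate 2. RALFL4 was covered over 40.2% and 0% in fixed replicates 1 and 2, 46.9% and 0% in unfixed replicates 1 and 2, and 60.3% in leaf. RALFL4 thus lay close below the 50% line in both replicates numbered 1. Over the gene alone, without flanks, it was covered over 72.6% in fixed replicate 1, 80.7% in unfixed replicate 1 and 68.6% in leaf. RALFL4 was then marked in 3 lists, so its leaf-only state depends on the flanks. RALFL6, RALFL7 and RALFL16 are pollen peptides that help keep further pollen tubes out of an ovule that has received one. RALFL16 was at 0% in all endosperm lists and 100% in leaf. RALFL7 was at 17.8% in both fixed lists and unfixed replicate 1, at 0% in unfixed replicate 2 and at 66.0% in leaf. RALFL6 was at 0% in each of the 5 lists. Together, leaf domains marked 11 of these 12 pollen peptides (19.7% of all genes), of which 4 share a domain. Of the 12, 5 were also marked in all endosperm lists (9.92% of all genes). The other 18 RALF genes had no pollen or stigma role assigned here, which does not make them absent from these tissues. Of these 18, leaf domains marked 5, and 2 were marked in all endosperm lists. Among all genes in the RALF length range, the shares were 28.1% in leaf and 13% in all endosperm lists. The groups were put together after the values were seen, so these counts describe the genes and test nothing.

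Among members known from other organs, RALFL8, a peptide linked to stress responses in roots, was covered over 93.6% in fixed replicate 1 and 100% in the other 4 lists. RALFL17, which can trigger an immune burst of reactive oxygen, was covered over 76.5% and 45.2% in fixed replicates 1 and 2, 57.7% and 98.5% in unfixed replicates 1 and 2, and 57.7% in leaf. RALFL34, a peptide of lateral root initiation, was covered over 10.7% and 4.33% in fixed replicates 1 and 2, 0% and 4.33% in unfixed replicates 1 and 2, and 0% in leaf. RALFL34 took this cover from a domain over its neighbour HEC1. RALFL15 was at 100% in all 5 lists. RALFL9 was at 31.7% in fixed replicate 2, 0% in the other 3 endosperm lists and 89.7% in leaf. RALFL20 was at 100% in 4 lists and at 47.2% in unfixed replicate 2, which kept it out of the count for all endosperm lists.

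The 4 members marked in some endosperm list but not in leaf were each marked under 1 replicate number alone. RALFL28 was covered over 100% in fixed replicate 1, 69.2% in unfixed replicate 1 and 0% in both replicates numbered 2 and in leaf. RALFL2 was covered over 59.0% and 100% in fixed and unfixed replicate 1, 0% in both replicates numbered 2, and 30.2% in leaf. RALFL3, its tandem neighbour, was at 21.9% and 65.6% in the same 2 endosperm lists and 0% elsewhere. RALFL29 was at 59.9% in fixed replicate 2 and 0% in the other 4 lists. In these 4 genes the cover thus differed between replicates of 1 treatment.

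Domains over the RALF genes were mostly wide and shared with neighbours. RALFL10 to RALFL13, with gaps of 1215, 1695 and 1403 bp between genes, lay in 1 domain of 21900 bp in fixed replicate 1 (TAIR10, chromosome 2, 8242801 to 8264700). That domain spanned 21900 bp in fixed replicate 2, 19500 bp in unfixed replicate 1 and 23100 bp in leaf (8240251 to 8263350). It also held other genes, among them SHT, which encodes a spermidine acyltransferase. In unfixed replicate 2, RALFL10 lay in a domain of 3150 bp and the other 3 in one of 4950 bp. The 4 genes are therefore not independent cases, and the 7 members marked in all endosperm lists stand for 4 stretches of chromosome. RALFL8 and RALFL9 lie 1611 bp apart. The domain over RALFL8 spanned 2250 to 3300 bp in endosperm, and in leaf it spanned 4950 bp (chromosome 1, 22713001 to 22717950) and took in RALFL9. RALFL25 and RALFL26 lie 1728 bp apart. RALFL25 had a domain of its own in leaf alone, of 900 bp (chromosome 3, 9162901 to 9163800), while RALFL26 shared a domain with CYP82G1 in both fixed lists and in leaf. In unfixed replicate 1, RALFL26 had a domain of 600 bp of its own, and in unfixed replicate 2 none.

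**Figure D2:**
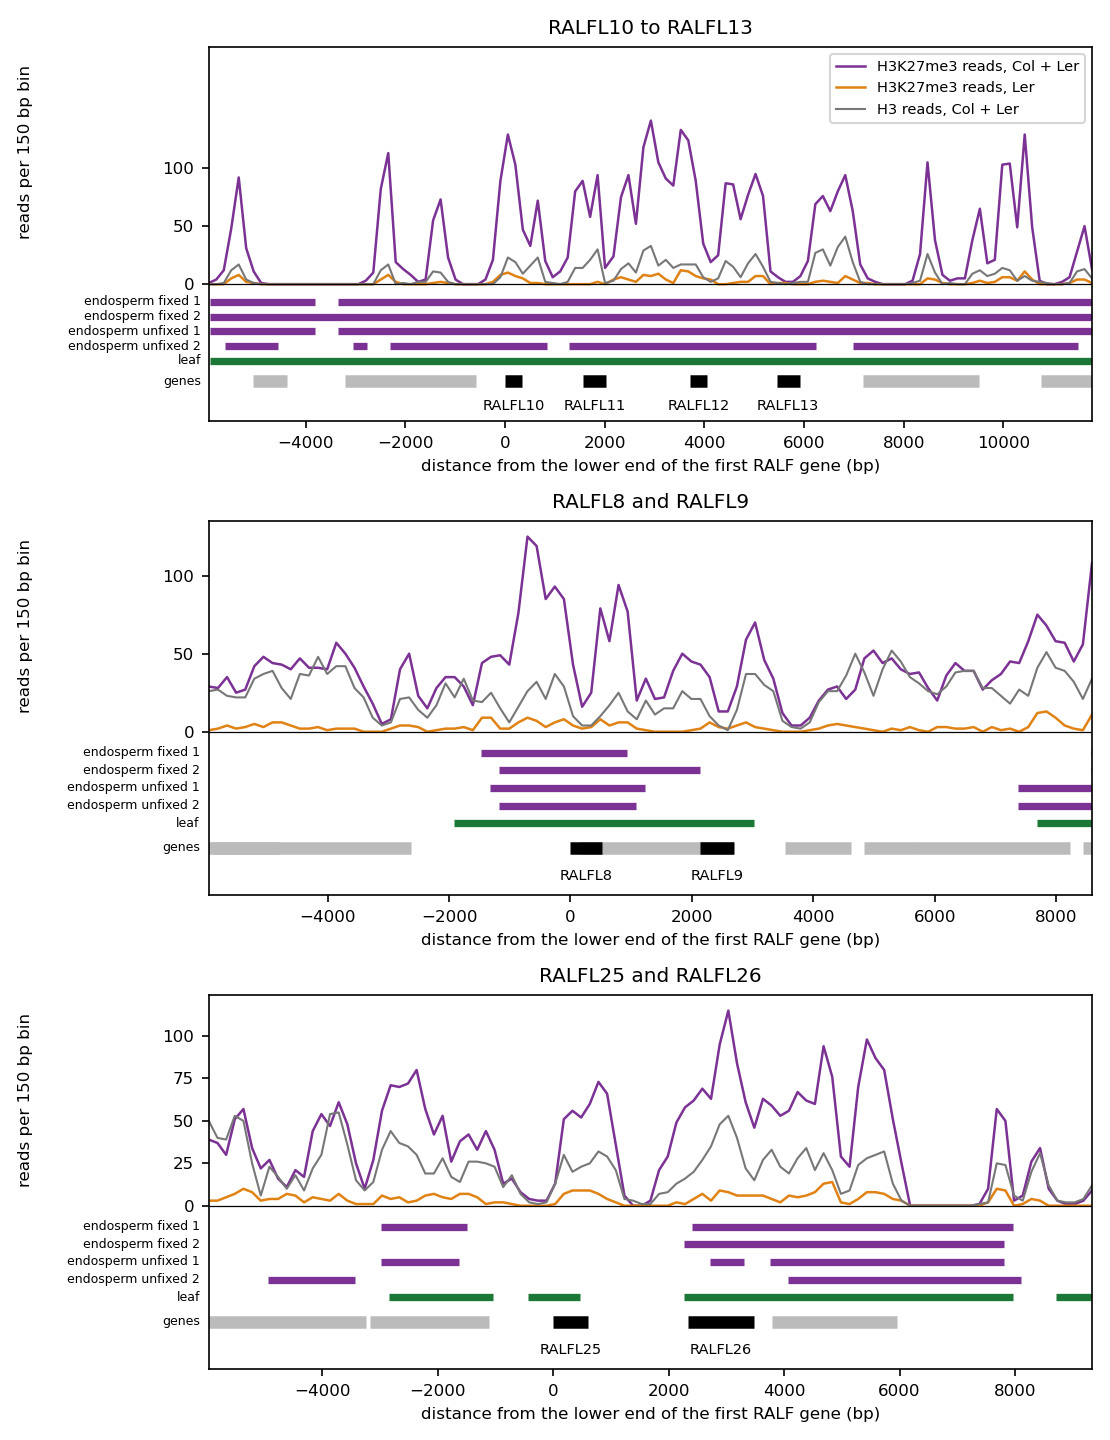
Reads assigned to a parent per 150 bp bin (vertical axis) along 3 RALF tandem rows, by distance in bp; bars below mark the domains of each library and the genes, RALF genes in black. Over RALFL10 to RALFL13 the bars of both tissues span the row, with a gap in unfixed replicate 2, whereas over RALFL25 only leaf has a bar.

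Of the single genes, RALFL15 lay in domains of 5550 to 11550 bp in endosperm and 12450 bp in leaf (chromosome 2, 9370201 to 9382650). RALFL19 lay in domains of 9300 and 4650 bp in fixed replicates 1 and 2, 9600 and 1650 bp in unfixed replicates 1 and 2, and 14700 bp in leaf (chromosome 2, 14282251 to 14296950). The leaf domain also held AT2G33780 and AGP30. RALFL20 shared its leaf domain of 19350 bp with WRKY35, and RALFL16 shared one of 6000 bp with PHT1;5, a phosphate transporter gene. RALFL4, RALFL7, RALFL25 and RALFL30 were each the only gene in their leaf domains, of 1800, 1200, 900 and 2550 bp. The median over all leaf domains was 2250 bp, so that 3 of these 4 lay in leaf domains narrower than the median.

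The 4 endosperm libraries gave a mean cover over the 34 RALF windows of 35.1% and 31.2% in fixed replicates 1 and 2 and 35.2% and 23.1% in unfixed replicates 1 and 2. The 34 windows averaged 43.9% in leaf. Over all genes the means were 18.3%, 18.6%, 20.0% and 13.4% in the 4 endosperm lists in the same order and 19.7% in leaf. The number of marked RALF genes was 12, 10, 12 and 8 in the same endosperm lists, where 19%, 19.5%, 20.2% and 12.4% of all genes were marked. Mean cover of RALF windows was 33.1 ± 2.77% in fixed and 29.1 ± 8.53% in unfixed nuclei (SD, n = 2 each). The difference of 3.98 percentage points did not exceed the SD among unfixed libraries (two-sided exact permutation test, p = 1.00; the smallest p that 4 libraries allow is 0.33). Without unfixed replicate 2 it was -2.05 points, so that 1 library set its sign.

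Reads relative to H3 gave a second view of the mark in endosperm, without a domain caller. H3K27me3 reads of both parents were divided by H3 reads of the same window, each scaled to its antibody's total, and the log2 ratio was called when at least 2-fold with a 95% interval beyond 0. The table has no columns per library and was taken as pooled reads. The errors below are therefore counting errors widened for local clumping and carry no spread between replicates. Of the 34 RALF genes, 32 had enough reads, and 9 were called above H3, where 7.96% of 23133 genes were. None was called below H3, where 9.17% of genes were. The median over the 32 RALF genes was log2 0.40, against -0.29 for all genes and -0.51 for genes marked in no list, here called the unmarked median. Relative to the unmarked median, 14 RALF genes were called above, where 18.2% of genes were, and 0 below, where 1.23% of genes were.

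The highest values stood in the RALFL10 to RALFL13 row. RALFL12 had 688 H3K27me3 and 119 H3 reads, a log2 ratio of 1.85 ± 0.29 (widened SE, as below). RALFL10 had 518 and 98 reads (1.72 ± 0.32), and RALFL11 had 562 and 116 reads (1.60 ± 0.30). Their order lies within these errors. RALFL19, the pollen tube wall peptide, had 375 and 87 reads (1.43 ± 0.34). RALFL2 had 354 and 86 reads (1.36 ± 0.35), although it was marked in only the 2 endosperm lists numbered 1. With 1000 bp flanks RALFL2 stood at 0.88 and was not called, and without flanks RALFL11 stood at 0.99 and was not called. The other 4 called above H3 were RALFL8 at 1.27 ± 0.25, RALFL15 at 1.18 ± 0.21, RALFL13 at 1.10 ± 0.32 and RALFL20 at 1.07 ± 0.39. All 7 members marked in all endosperm lists were thus also called by reads. The reads were taken to come from the same endosperm nuclei as the domains, so the 2 views are not independent.

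The 6 members marked in leaf alone lay between these and the unmarked genes. RALFL7 had 479 H3K27me3 and 180 H3 reads (0.74 ± 0.25) and RALFL4 had 548 and 235 reads (0.55 ± 0.23). RALFL16 had 332 and 147 reads (0.50 ± 0.29). These 3 pollen genes were called above the median of the unmarked genes. RALFL9 stood at 0.41 ± 0.26, RALFL25 at 0.40 ± 0.25 and RALFL30 at 0.39 ± 0.24. The median of the 6 was 0.46, against 0.03 for all 782 tested genes in the same marking state. All 6 lay above the unmarked median of -0.51, although endosperm domains covered less than 50% of their windows.

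The lowest values belonged to RALFL22 at -0.98 ± 0.29 (177 and 219 reads), RALFL17 at -0.92 ± 0.51 (59 and 70 reads) and RALFL31 at -0.83 ± 0.36 (120 and 134 reads). RALFL17 was covered by domains in each endosperm list, but 10 of its 16 bins held no read assigned to a parent. Of the stigma peptides, RALF1 stood at -0.79 ± 0.51 (61 and 66 reads), RALFL33 at -0.75 ± 0.25 (256 and 270 reads) and RALF23 at -0.04 ± 0.25 (350 and 225 reads). RALFL6, the unmarked pollen peptide, stood at 0.05 ± 0.27 (307 and 186 reads). RALFL29 (48 and 23 reads) and RALFL34 (48 and 33 reads) had too few reads to be tested.

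**Figure D3:**
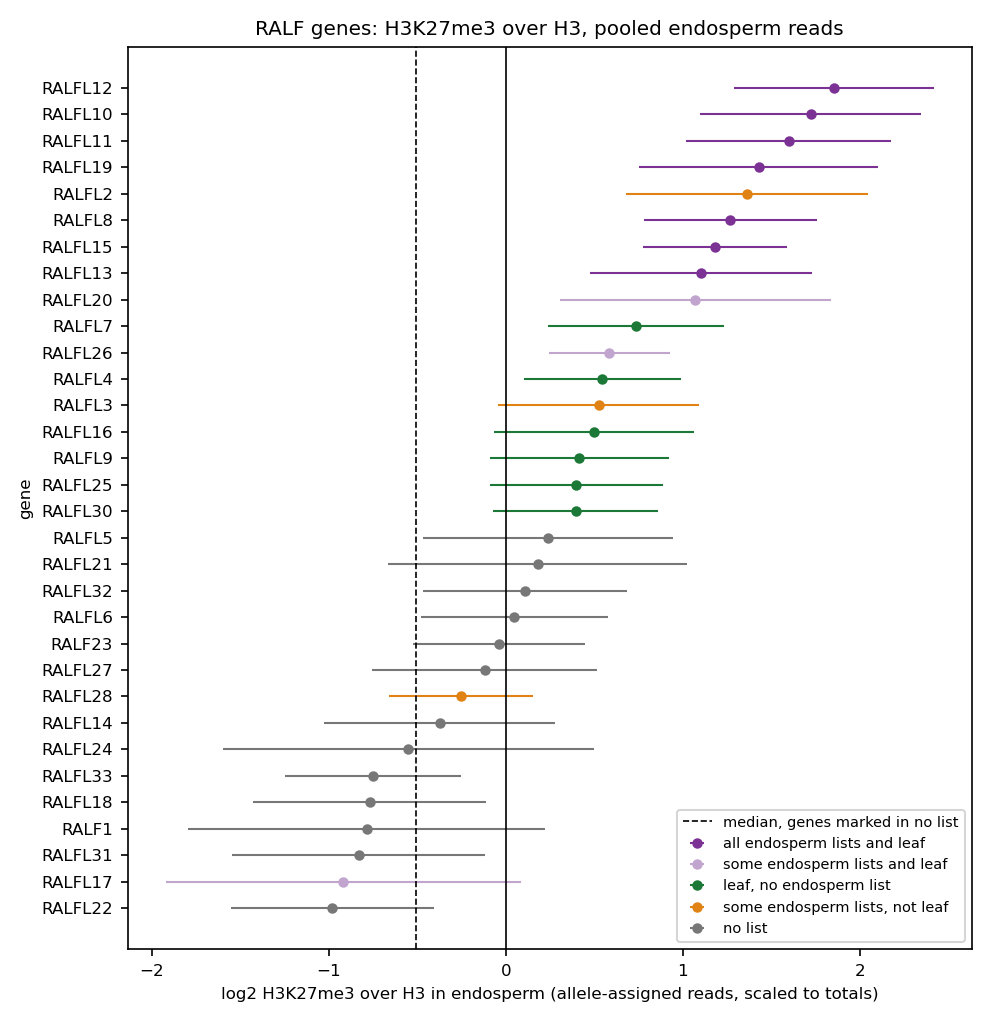
Log2 ratio of H3K27me3 to H3 reads in endosperm (horizontal axis) for the 32 RALF genes with enough reads, with widened 95% intervals from pooled counts, coloured by marking state; the dashed line is the unmarked median, -0.51. Members marked in all endosperm lists lie between 1.10 and 1.85, and those marked in leaf alone between 0.39 and 0.74.

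Reads were then split by parent, which asks whether the maternal Col and the paternal Ler copy of a RALF gene carry the mark alike. For each window, the Col:Ler ratio of H3K27me3 reads was divided by that of H3 reads, and the log2 parental ratio is given relative to its unmarked median of 0.91. H3 reads carry the dose of both genomes and any preference in read assignment, so the copies were not taken as equal in number. Col reads of maternal seed tissue and of the maternal endosperm genome cannot be told apart in this table. Of the 30 RALF genes with enough reads, 3 were called toward Col, where 9.28% of 21868 genes were, and 0 toward Ler, where 3.35% were. The called genes were RALFL11, RALFL19 and RALFL15, all marked in all endosperm lists. The share of RALF genes called toward Col was 10.0%, close to that of all genes. Without centring, 12 RALF genes were called toward Col, where 42.3% of genes were, and 0 toward Ler, where 0.119% were. When each antibody was scaled to its total Col and Ler reads instead, calls toward Col numbered 2 among RALF genes and calls toward Ler 0. Over all genes that scaling gave 1309 toward Col and 1412 toward Ler, so the excess of calls toward Col among all genes depends on the scaling.

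RALFL11 had 546 Col and 16 Ler reads in H3K27me3, or 97.2% Col (95% Wilson interval 95.4% to 98.2%). In H3 it had 84 Col and 32 Ler reads, or 72.4% Col (63.7% to 79.7%). The parental ratio of RALFL11 was 2.76 ± 0.72. Ler reads were uneven along its window. Neighbouring bins with 80 and 89 Col reads in H3K27me3 had 0 Ler reads in both antibodies. The next bins held 8 and 10 of its 32 Ler reads in H3. Whether Ler reads can be assigned in the bins without them was not tested. RALFL19 had 364 Col and 11 Ler reads in H3K27me3 and 71 and 16 in H3, a ratio of 1.96 ± 0.90. RALFL15 had 873 and 34 reads in H3K27me3 and 211 and 39 in H3, a ratio of 1.33 ± 0.54. In these 3 genes the Ler copy had few H3K27me3 reads, 11 to 34, beside 16 to 39 in H3. The Wilson intervals cover counting error only, and the ± values are counting errors widened for local clumping. Neither carries spread between replicates. RALFL11 was called under each setting run. RALFL19 was not called when scaled to total Col and Ler reads (1.75), and it had too few reads without flanks or with a minimum of 20 Ler reads in H3. RALFL15 was not called without flanks (1.06) or with 1000 bp flanks (0.92).

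Of the tandem row, RALFL11 was the only 1 of the 4 genes called by parent. RALFL10 had a ratio of 1.05 ± 0.67, RALFL12 of 0.20 ± 0.69 and RALFL13 of 1.01 ± 0.73, none of them called. With 1000 bp flanks RALFL13 was called as well (1.72), and the differences within the row were not tested. RALFL8 was at -0.20 ± 0.61. The lowest ratios were those of RALFL25 (-0.95 ± 0.60) and RALFL30 (-0.95 ± 0.69), also not called. RALFL25 had 88.5% Col reads in H3K27me3 and 88.9% in H3, and RALFL30 had 92.4% and 92.7%. These were the only 2 of the 30 tested RALF genes whose Col share was lower in H3K27me3 than in H3. Over all reads the Col share was 90.4% in H3K27me3 and 81.2% in H3.

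**Figure D4:**
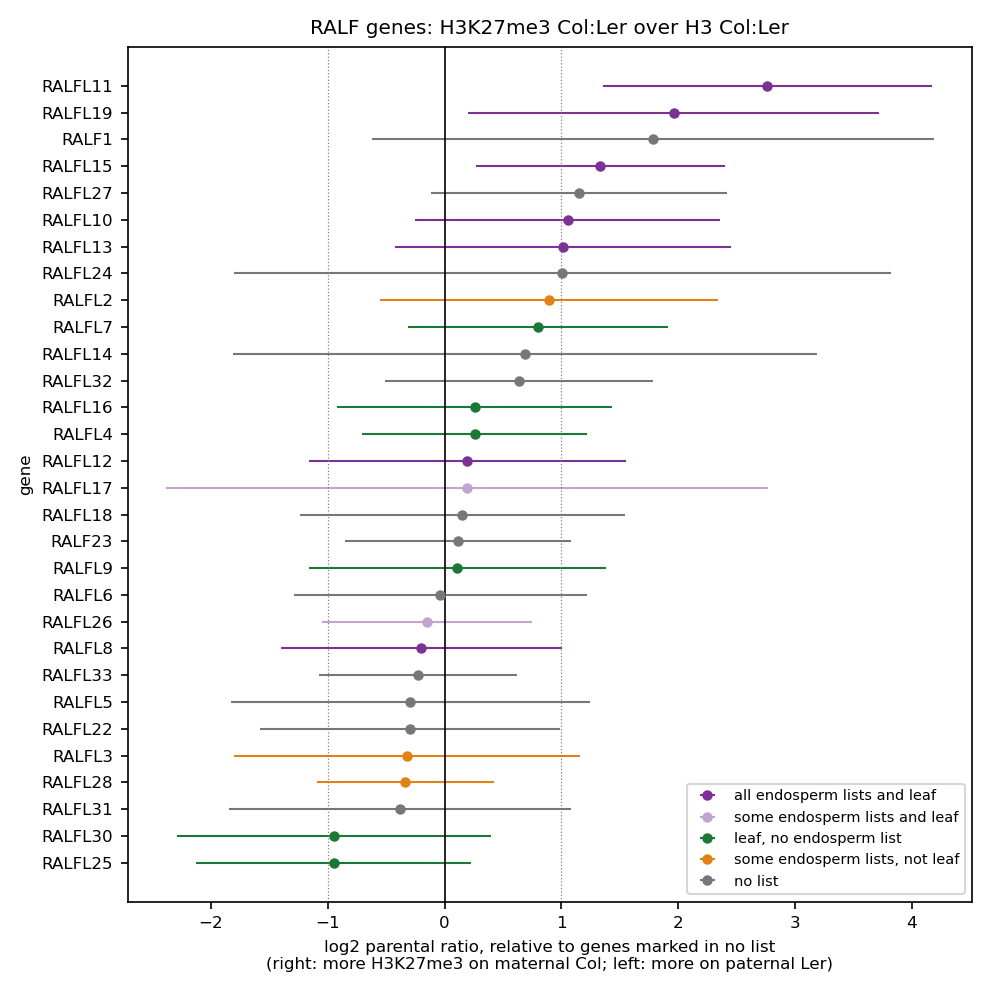
Parental ratio on the log2 scale (H3K27me3 Col:Ler divided by H3 Col:Ler, relative to genes in no list) for the 30 RALF genes with enough reads, with widened 95% intervals; right means more mark on maternal Col. RALFL11, RALFL19 and RALFL15 have intervals that lie wholly to the right of 0, and no gene has one wholly to the left.

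Genes that act with the peptides were marked in shares near those of all genes. The group held 37 receptors, co-receptors, extensins and processing or downstream genes. Of these, 5 were marked in all endosperm lists (9.92% of all genes), 6 in leaf (19.7%) and 27 in no list (71%). Their median ratio of H3K27me3 to H3 was log2 -0.30 over 34 genes with enough reads, near the -0.29 of all genes and below the 0.40 of the RALF genes. The difference between the groups was not tested. Among 9 receptors, ANX2, a receptor of the pollen tube, was covered over 91.2% in fixed replicates 1 and 2 and unfixed replicate 1, over 84.1% in unfixed replicate 2 and over 80.5% in leaf, with a log2 ratio of 1.56 ± 0.23. ANX1, which acts with ANX2, was at 0% in each list and at -1.19 ± 0.33. HERK1, a FERONIA relative that acts in the ovule, was covered over 69.2% and 65.8% in fixed replicates 1 and 2, 81.0% and 61.6% in unfixed replicates 1 and 2, and 2.30% in leaf. HERK1 was the only 1 of the 5 pathway genes marked throughout endosperm that was unmarked in leaf. Over all genes, 542 of the 2723 marked throughout endosperm were unmarked in leaf, so HERK1 is no exception. FER itself was at 0% in each endosperm list, 7.99% in leaf and -0.75 ± 0.18 by reads.

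None of the 4 co-receptors of the LORELEI family was marked in any list, a state shared by 71% of all genes. Of 11 leucine-rich repeat extensins, LRX2, a root hair wall protein, and AT3G22800 were marked in all 5 lists, and AT5G25550 in leaf and 3 endosperm lists. LRX2 was covered over 100% in leaf and 68.8% to 100% in endosperm. Of 13 processing and downstream genes, RBOHH was marked in all 5 lists, and RBOHJ in leaf and 1 endosperm list. Both encode NADPH oxidases of the pollen tube. RBOHH was covered over 67.4% to 100% in endosperm and 100% in leaf, with a log2 ratio of 1.07 ± 0.12. RBOHJ was covered over 29.7% to 77.3% in endosperm and 69.2% in leaf (0.48 ± 0.18).

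**Figure D5:**
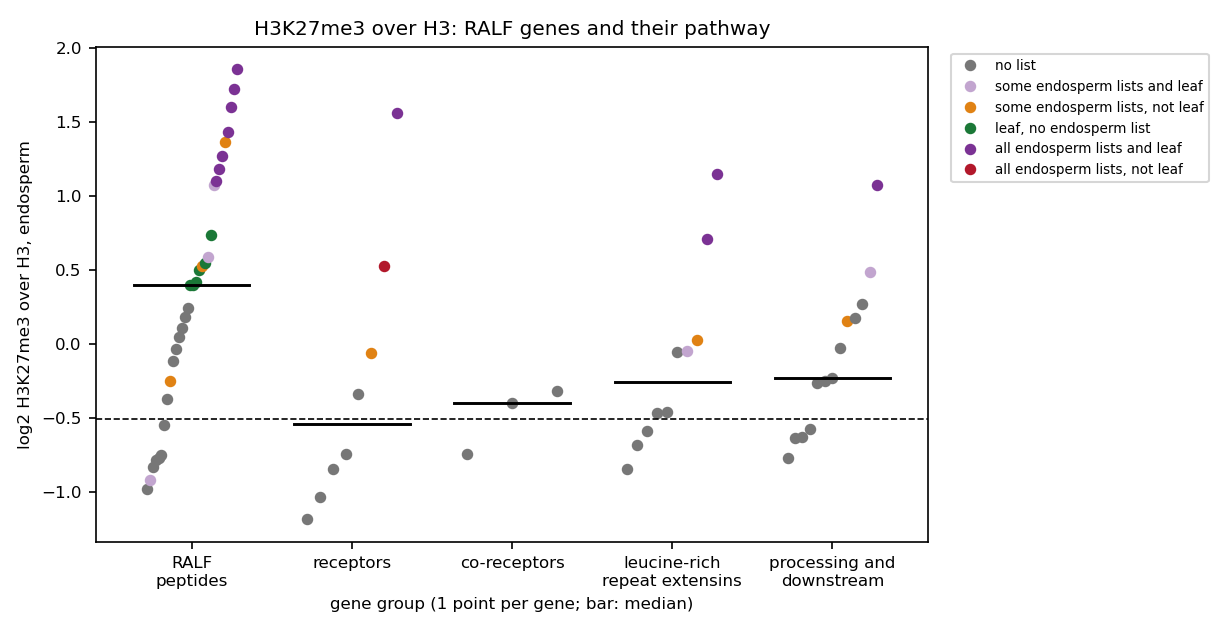
Log2 ratio of H3K27me3 to H3 reads in endosperm (vertical axis) for RALF genes and 4 groups of genes that act with them, 1 point per gene with enough reads, bars at the medians, coloured by marking state; the dashed line is the unmarked median, -0.51. The RALF median is 0.40, and ANX2, AT3G22800 and RBOHH are the pathway genes above 1.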

How the data were processed

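The labels describe 17 CUT&RUN samples, of which the 5 H3K27me3 domain lists (4 endosperm, 1 leaf) and 1 table of endosperm read counts were used; IgG libraries and the seed coat and embryo tests were left out. Per the submitters' processing notes, the tools were SICER, Bowtie2, Picard, Trim Galore and deepTools 2.0 and the build was TAIR10; their roles are not listed. The authors deposited, for each domain, a p-value or q-value (the kind is not stated) and an enrichment score, whose scale is not stated; neither enters a value above, except that the score ranks domains within a list in one alternative. The authors' deposited table gives whole-number Col and Ler read counts for H3K27me3 and H3 in 150 bp bins. Its header names antibody and parent but no replicate or treatment, so the counts were taken as pooled over the endosperm libraries. Depth per library is therefore unknown, and the count model planned for separate libraries could not be fitted.

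Gene positions came from the TAIR10.1 annotation, taken to share TAIR10 coordinates; 11 of 18 seed markers were marked in leaf in place, against 4 and 6 when moved by 50000 bp either way. No annotation coordinate is printed. Bins counted for a window when their midpoint lay in it. Levels needed 40 reads per antibody and parental ratios also 10 Ler reads in H3; 0.5 was added to each count. Counting SEs were multiplied by 2.01 for levels and 1.54 for parental ratios, the scatter between parts of 13572 and 12127 windows of genes marked in no list, after trimming 1% on each side. Python 3.11.15, numpy 2.4.6, pandas 2.3.3, scipy 1.17.1 and matplotlib 3.10.9 were used. Replicates are only numbered in the labels, so p-values measure the spread between these samples, which may be technical. Members and gene lists were chosen with earlier results of these data known. Named in full were members marked in 1 tissue only, the 5 highest and 3 lowest levels, members called by parent and members with a known role; the rest follow their marking state. Pathway genes named were those marked in all endosperm lists or leaf, and FER and ANX1, chosen after their values were seen. Alternatives covered thresholds, flanks, scalings and left-out libraries.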

Additional observations from a re-analysis of the deposited data

Results flagged for a closer look

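In 10 RALF genes, 1 endosperm library stood apart from the other 3 in the share of the window covered, by the gap to its nearest neighbour over the whole range. The gap is relative to the range, so it can be small in percent, as for RALFL10 at 99.3% against 100%. The 10 genes are 29.4% of the RALF genes, and the same relative gap was found in 17.5% of all genes. Among genes whose 4 covers were not all equal, the shares were 58.8% and 41.2%. Covers cannot pass 100% or fall below 0%, and many are tied there, so the usual rate of about 1 in 20 groups by chance does not hold for them. In 6 genes the library was unfixed replicate 2, at its lowest: RALFL7 (0%), RALFL10 (99.3%), RALFL11 (84.5%), RALFL13 (88.3%), RALFL19 (63.4%) and RALFL20 (47.2%). That library also had the least covered length of the 4, 12.7 Mb; its part in these values was not tested. In 3 genes it was fixed replicate 2, at its highest: RALFL9 (31.7%), RALF23 (20.5%) and RALFL29 (59.9%). RALFL8 was lowest in fixed replicate 1 (93.6%).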

How the results depend on the processing

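With windows required to be covered over 80%, 3 RALF genes were marked in leaf and no endosperm list, and 2 pathway genes in all endosperm lists. Without flanks, 5 RALF genes were marked in leaf and no endosperm list. With any overlap, 10 pathway genes were marked in all endosperm lists, 15 in leaf and 19 in any list. Over all genes, 52% overlapped no domain in any list. For the other counts of marked genes in this section, shares of all genes at the changed settings were not computed. Without flanks, 2 of 17 testable RALF genes passed 2-fold over H3 and 1 of 13 was called by parent. Over all genes, 1712 of 17986 were then called toward Col and 647 toward Ler. The share of all genes above H3 without flanks was not computed. Fewer bins enter windows without flanks. Relative to genes marked in no list, 14 were above H3, and without centring 12 were called toward Col. RALF genes marked in all endosperm lists numbered 6 to 9 over cover, flank and domain settings, and those marked in leaf 11 to 19. Leaving out 1 endosperm library at a time gave 7 to 8 in all endosperm lists, 0 in all endosperm lists and not leaf, 6 in leaf and no endosperm list, 13 to 14 in at least 1 endosperm list, and 5 to 7 pathway genes in all endosperm lists. The fixed minus unfixed difference ranged from -2.05 points without unfixed replicate 2 to 10.0 points without unfixed replicate 1; the cause was not tested. RALFL13, RALFL30 and RALFL15 changed call by parent with 1000 bp flanks (4 called, RALFL30 toward Ler). Settings for pathway genes, for at least 1 endosperm list and for a minimum of 20 Ler reads in H3 were chosen after seeing the data. With the replicate block, the difference stayed 3.98 points (exact sign permutation p = 1.00, smallest 0.5). Deviations of same-numbered libraries had a correlation of -0.05 over all genes and 0.57 over the RALF genes. The labels give only the numbers, so the libraries were not treated as pairs. Leaf has 1 library and the read table no replicate; both limit every tissue and parental value, and RALFL29 and RALFL34 had too few reads.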
